A study of Homo sapiens with 15 samples.

Results

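The nuclear genes for subunits of the respiratory chain and the ATP synthase were compared across 2 human cell lines and their co-cultures. A gene was taken as a member when its symbol began with NDUFA, NDUFB, NDUFC, NDUFS or NDUFV and a digit, was SDHA, SDHB, SDHC or SDHD, or began with UQCR, ATP5, or COX and a digit from 4 to 8, and held no hyphen. The rule found 86 of the 17138 genes listed in either table, with 83 of 16382 in the MRC5 table, 85 of 16076 in the H196 table and 82 in both. COX7A1 was analysed in MRC5 only, and COX6A2, COX7B2 and COX8C in H196 only. COX4I2, the second isoform of subunit COX4, and the subunits encoded by mitochondrial DNA were not analysed here, so that COX4I1 is given without its partner.

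MRC5 is a line of human lung fibroblasts, and H69 and H196 are small cell lung cancer (SCLC) lines, H69 of the neuroendocrine (NE) and H196 of the non-NE kind. MRC5 cells were mono-cultured (MRC5_Mo), co-cultured with H69 cells (MRC5_coH69) or co-cultured with H196 cells (MRC5_coH196), and H196 cells were mono-cultured (H196_Mo) or co-cultured with MRC5 cells (H196_Co). Each group had 3 libraries, 15 in all, made after 1 week of culture with the partner on a porous insert that keeps the cells apart. None of the groups carried a genetic change or a drug, each line stands for 1 fibroblast or 1 tumor line, and H69 cells themselves are not among the libraries analysed here.

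Complexes I to IV pass electrons from NADH and succinate to oxygen. Complexes I, III and IV also pump protons across the inner mitochondrial membrane, and complex V, the ATP synthase, makes ATP from that gradient. Complex I oxidises NADH (NDUF genes), complex II oxidises succinate (SDH genes), complex III carries electrons to cytochrome c (UQCR genes) and complex IV, cytochrome c oxidase, reduces oxygen (COX genes). Several subunits have paralogs for particular tissues or oxygen levels. NDUFA4 is a constitutive subunit now assigned to complex IV, and NDUFA4L2 is its paralog, known as a target of the hypoxia-inducible factor HIF-1 that lowers complex I activity. The NDUFA4 and NDUFA4L2 genes are therefore described as a pair of their own and are left out of the counts by complex.

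The bases before the start of 3 genes are shown because these genes gave the largest rise and the largest fall of the members in MRC5_coH196 against MRC5_Mo, with the constitutive partner of the first. They were taken from RefSeq (GRCh38.p14), run 5′ to 3′ on the gene's strand, and end where the annotated first exon begins. Windows of 250 bases were cut short where an exon annotated by GENCODE began earlier. NDUFA4L2 is shown at chr12:57240763-57241012 (minus strand), NDUFA4 at chr7:10940257-10940403 (minus strand) and ATP5MC1 at chr17:48892537-48892764 (plus strand). Capitals mark matches on either strand to 4 short motifs, which were ACGTG and GCGTG (the core of HIF sites), CCGGAAG (ETS and GABP factors) and GCATGC (the core of NRF1 sites).
NDUFA4L2: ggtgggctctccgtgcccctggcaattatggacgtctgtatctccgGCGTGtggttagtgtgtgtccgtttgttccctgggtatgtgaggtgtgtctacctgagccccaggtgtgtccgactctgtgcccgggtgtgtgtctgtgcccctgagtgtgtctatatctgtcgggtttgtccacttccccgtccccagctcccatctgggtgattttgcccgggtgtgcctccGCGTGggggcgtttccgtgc
NDUFA4: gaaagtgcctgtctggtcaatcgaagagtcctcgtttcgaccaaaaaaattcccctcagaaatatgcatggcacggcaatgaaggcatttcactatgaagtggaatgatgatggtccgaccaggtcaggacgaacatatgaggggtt
ATP5MC1: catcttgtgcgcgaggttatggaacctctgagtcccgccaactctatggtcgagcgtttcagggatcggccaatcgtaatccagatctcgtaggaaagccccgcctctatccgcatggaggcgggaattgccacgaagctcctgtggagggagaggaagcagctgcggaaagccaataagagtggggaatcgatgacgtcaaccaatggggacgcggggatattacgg
The NDUFA4L2 window of 250 bases held 2 matches, both GCGTG, which began 204 and 20 bases before its end. The shorter windows of NDUFA4 (147 bases) and ATP5MC1 (228 bases) held 0, so the 3 windows are not of equal length, and the percentages that follow use uncut windows. Promoters of 71 of the 86 members could be matched by gene ID, and GCGTG stood in the 250 bases before the start of 47.9% of them, against 31.9% of 27305 promoters in all. CCGGAAG stood in 23.9% of the members against 8.82% of all promoters, GCATGC in 19.7% against 6.44%, and ACGTG in 21.1% against 18.7%. Matches of different motifs may share bases, and a match says only that the letters are there.

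Libraries held 16073597 to 19170560 expected counts. Reads that fit more than 1 gene are shared out between them in such counts, and 9 of 83 members in the MRC5 table and 10 of 85 in the H196 table had a count that was not whole in some library, among them ATP5PB, NDUFA9 and NDUFC2 in every library. Of 8 fibroblast markers, 8 were above 1 FPKM (fragments per length of transcript, scaled to the fragments of the library) in every MRC5 library, and their sum was 2494 to 2641 FPKM in MRC5_coH196, 5106 to 5689 in MRC5_Mo and 0.36 to 0.57 in the H196 libraries. Among 6 NE markers, SYP and DLL3 were above 1 FPKM in every H196 library, and in the MRC5 libraries the listed NE markers summed to at most 0.60 FPKM, with 0.21 to 0.44 in MRC5_coH196. Of 4 epithelial markers 2 were above 1 FPKM in every library, and the 4 summed to 70.5 to 121.8 FPKM in MRC5 and 178.5 to 232.1 in H196 libraries. The non-NE SCLC markers YAP1 and REST were above 1 FPKM in all 15 libraries. The fibroblast markers were thus lower in MRC5_coH196 than in MRC5_Mo libraries, as were most members, and the part of this difference in the results below was not tested.

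The members together took 0.717% to 0.727% of the counts in MRC5_Mo, 0.685% to 0.692% in MRC5_coH69 and 0.531% to 0.559% in MRC5_coH196 libraries. In H196 cells they took 1.15% to 1.25% when mono-cultured and 1.08% to 1.21% when co-cultured. MRC5_coH196 libraries thus held the smallest share of these transcripts and did not overlap any other group, and the H196 groups overlapped each other. Complex I fell from 0.217% ± 0.0016 (SD, n = 3) of counts in MRC5_Mo to 0.155% ± 0.0044 in MRC5_coH196, and complex V from 0.258% ± 0.0035 to 0.181% ± 0.0041. Complex IV held 0.110% ± 0.0017 in MRC5_Mo and 0.0954% ± 0.0027 in MRC5_coH196, a smaller difference in proportion. Because the libraries were made from bulk RNA, fewer cells carrying a transcript and less of it per cell cannot be told apart. Gene by gene, MRC5_coH196 had the lowest mean FPKM of the 5 groups for 67 of the 82 genes in both tables, and H196_Mo the highest for 55. This order was not counted over all genes, which lean the same way. On log2(FPKM + 1), 37.7% of all genes were above 0 in MRC5_coH196 against MRC5_Mo, and 65.3% in H196_Mo against MRC5_Mo. Part of the 67 and 55 is thus shared with genes at large. The tables of the lines were made separately, and FPKM values summed to 553715 to 572334 in the MRC5 and 662514 to 742684 in the H196 libraries, so levels set side by side across lines carry that difference in scale.

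**Figure D1:**
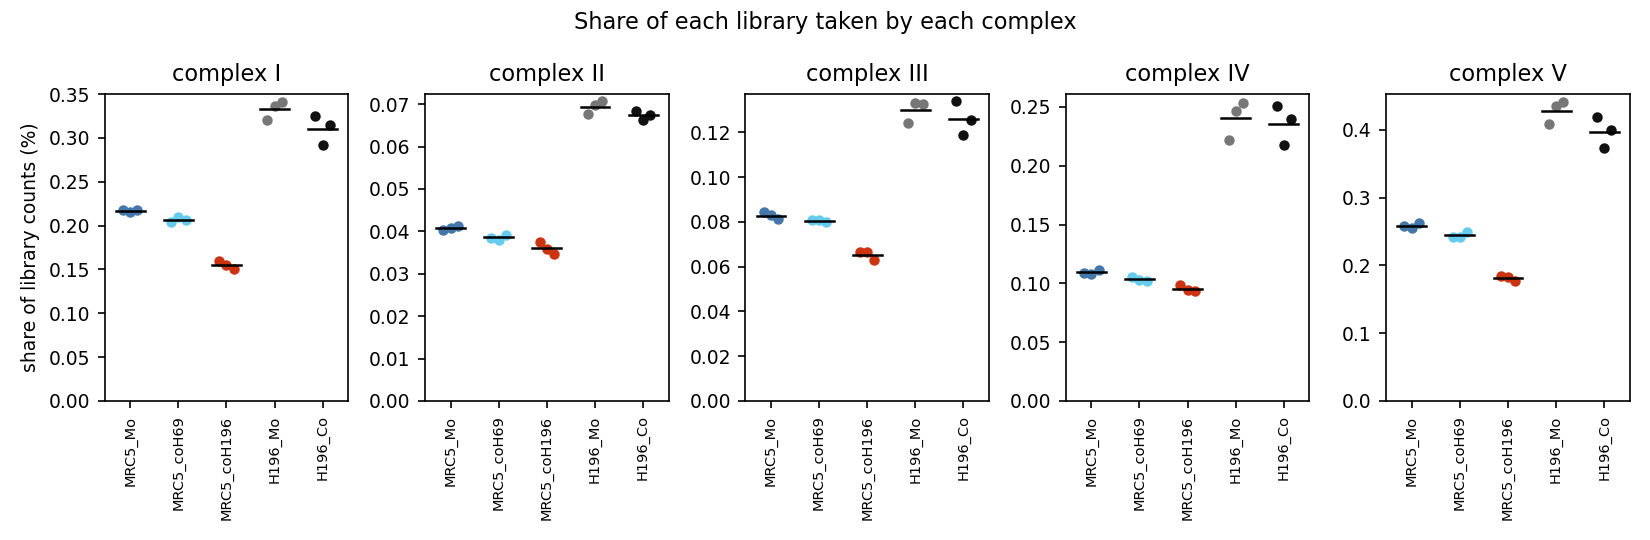
Share of each library's expected counts (%, linear axis from 0) taken by the subunit genes of complexes I to V, with 1 point per library, 3 per group, and a bar at the group mean. MRC5_coH196 points lie under the MRC5_Mo points in each complex, with means of 0.155% against 0.217% for complex I, and the H196 points lie above the MRC5 points.

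The question of what co-culture with the non-NE line does to these genes in fibroblasts was addressed by MRC5_coH196 against MRC5_Mo. Most respiratory chain and ATP synthase genes fell, by modest amounts, and a small number rose, of which NDUFA4L2 rose most. Of 81 members that passed the filter on low counts, 55 were lower and 10 higher at an adjusted p under 0.05 (edgeR quasi-likelihood test on counts scaled by TMM, Benjamini-Hochberg over all genes). Of all 12819 genes tested, 37.1% were lower and 37.2% higher, so that 55 of 81 lower is a larger share than that of all genes and 10 of 81 higher a smaller one. The median log2 fold change of the members was -0.22, against -0.003 for all genes tested. With the fold limit of 0.58 on the log2 scale that the study uses, 8 members were lower and 3 higher, while 14.7% of all genes were lower and 17.2% higher. At that limit 8 of 81 lower and 3 of 81 higher are smaller shares than those of all genes, so the excess of falls lies in changes under the limit. MRC5_coH196 values depend on the scaling. On library totals alone the median of all genes was -0.18, and on log2(FPKM + 1) it was -0.13, and the members' medians were then -0.39 and -0.40, so fold changes are given on the TMM scale and FPKM levels look lower than these by that shift. On library totals 70 members were lower and 5 higher, and of all genes 6295 were lower and 3467 higher. The 55 falls kept their sign in each of 4 other scalings, as did 8 of the 10 rises, the exceptions being COX7C and UQCRH. Library totals and the FPKM fits with pseudocounts of 1 and 0.1 move all genes down, with medians of -0.18, -0.13 and -0.18. DESeq2 size factors gave 0.0015, close to TMM. Falls could thus hardly change sign, and these scalings put only the rises to a test. The 3 libraries of a group are called parallel replicates, so p-values measure the spread between these samples, which may be technical.

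**Figure D2:**
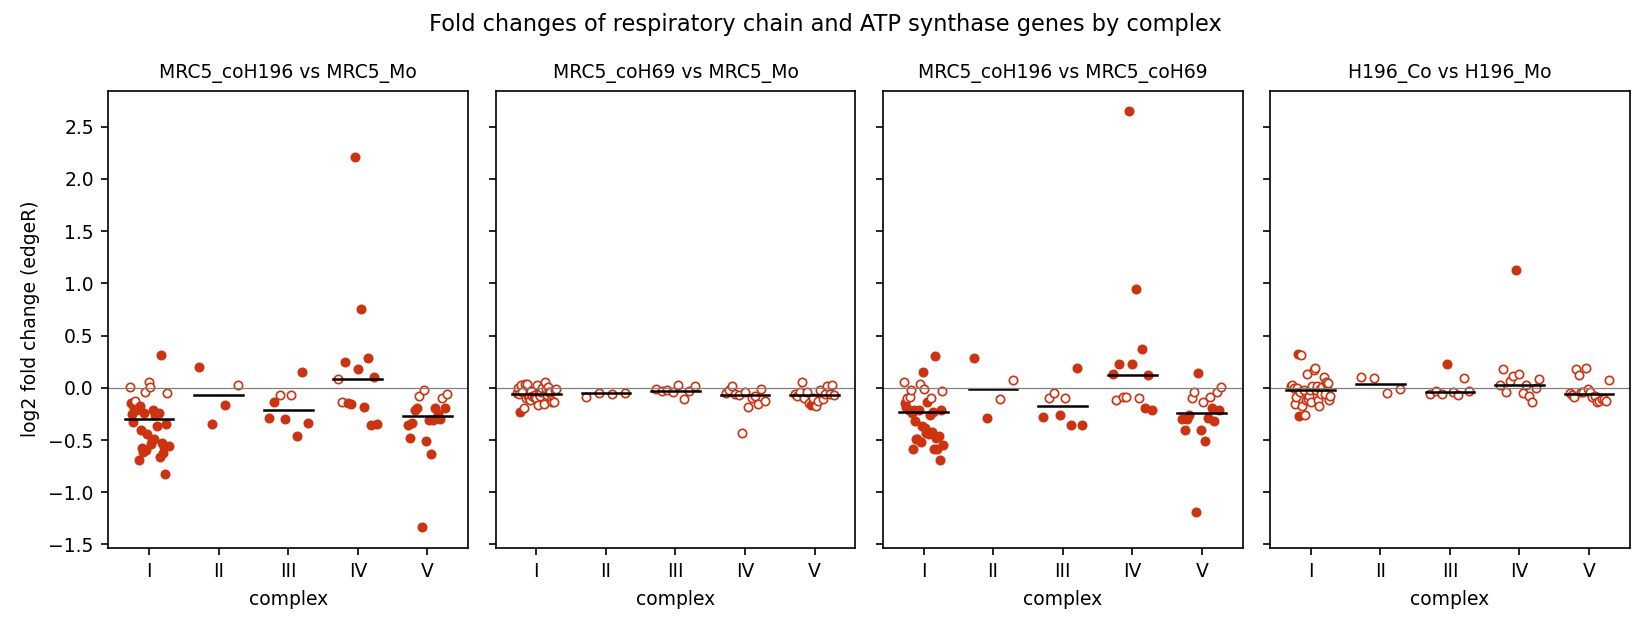
Log2 fold changes (edgeR, TMM scale) of the tested subunit genes of complexes I to V in 4 comparisons, with 1 point per gene, filled where the adjusted p was under 0.05, and a bar at each complex's median. In MRC5_coH196 against MRC5_Mo the medians are -0.30, -0.07, -0.21, 0.08 and -0.27 from complex I to V, and that of complex IV, the one above 0, turns to -0.10 on library totals; NDUFA4 and NDUFA4L2 are not drawn, and on library totals or FPKM the rises of COX7C and UQCRH turn to falls.

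Complex I held most of the falls, with 29 of 36 genes lower, 1 higher and a median log2 fold change of -0.30. Among the accessory subunits, which surround the core that binds the flavin, the iron-sulfur clusters and quinone, 23 of 29 were lower. NDUFS8, a core subunit that holds iron-sulfur clusters, was at 125, 130 and 125 FPKM in MRC5_Mo and at 68.0, 64.6 and 58.4 in MRC5_coH196. These groups did not overlap, and the log2 fold change was -0.83 ± 0.064 (SE, adjusted p = 1.93e-11, edgeR). NDUFA6, an accessory subunit, went from 75.2 to 84.5 FPKM in MRC5_Mo to 39.7 to 47.7 in MRC5_coH196, a log2 fold change of -0.69 ± 0.063 (adjusted p = 4.45e-10, edgeR). NDUFS3, a core subunit, fell from 62.6 to 65.99 FPKM to 31.7 to 38.4, or by 0.66 on the log2 scale. The core subunits NDUFS7 (-0.57), NDUFS1 (-0.37) and NDUFV1 (-0.35) fell as well, and NDUFV2, which binds an iron-sulfur cluster, had a log2 fold change of -0.05 and did not pass. NDUFS4, an accessory subunit needed for a late assembly step, was the gene of complex I that rose, from 111, 121 and 126 FPKM in MRC5_Mo to 123, 147 and 130 in MRC5_coH196. Its FPKM ranges overlapped, and on the TMM scale its log2 fold change was 0.32 ± 0.057 (adjusted p = 2.57e-05, edgeR).

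The 4 genes of complex II did not move one way. SDHB, the iron-sulfur subunit, was at 65.95, 62.3 and 69.5 FPKM in MRC5_Mo and at 45.9, 46.5 and 46.4 in MRC5_coH196, with no overlap and a log2 fold change of -0.34 ± 0.056 (adjusted p = 5.81e-06, edgeR). SDHC, a membrane anchor, fell by 0.16 on the log2 scale. SDHA, the flavoprotein, was at 57.8 to 64.1 FPKM in MRC5_Mo and at 59.0 to 66.8 in MRC5_coH196, overlapping ranges. On the TMM scale SDHA rose by 0.20 ± 0.051 (adjusted p = 0.000923, edgeR), and SDHD, the other anchor, had a log2 fold change of 0.03 and did not pass. In complex III, 5 of 8 tested genes were lower and 1 was higher. UQCRFS1, the Rieske iron-sulfur protein, fell most, from 26.7 to 27.8 FPKM in MRC5_Mo to 17.1 to 17.8 in MRC5_coH196, a log2 fold change of -0.46 ± 0.047 (adjusted p = 2.32e-09, edgeR). The core protein UQCRC1 fell by 0.30 and UQCRC2 had -0.07 on the log2 scale, which did not pass. UQCRH, a small hinge subunit, rose by 0.15 on the TMM scale and had -0.02 on library totals, and UQCRHL, a near-identical copy that the counting could mix with it, held at most 1.01 counts in an MRC5 library.

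In complex IV 6 of 13 genes were higher and 5 lower, with a median log2 fold change of 0.08. For so few genes this is near the 37.2% higher and 37.1% lower of all genes. Its direction depends on the scaling, since the median was -0.10 on library totals, with 3 higher and 7 lower, and -0.09 on log2(FPKM + 1), with 4 higher and 7 lower. COX4I1, the ubiquitous form of subunit COX4, was at 481, 483 and 472 FPKM in MRC5_Mo, 474, 462 and 461 in MRC5_coH69 and 470, 437 and 445 in MRC5_coH196. Its log2 fold change in MRC5_coH196 was 0.08 ± 0.044 and did not pass (adjusted p = 0.105, edgeR), without MRC5_coH196 replicate 2 it was 0.12 and passed (adjusted p = 0.0197), and on library totals it was -0.10 with an adjusted p of 0.0443. COX7A1, the form of subunit COX7A typical of muscle, had the largest rise of the complex that does not rest on few counts. It was at 67.4, 70.7 and 77.9 FPKM in MRC5_Mo, 76.3, 69.0 and 59.5 in MRC5_coH69 and 109, 115 and 109 in MRC5_coH196. The MRC5_coH196 libraries lay above the other MRC5 libraries, and COX7A1 rose by 0.76 ± 0.11 (SE) on the log2 scale, or 1.69-fold (adjusted p = 1.82e-06, edgeR). COX7A2, its ubiquitous paralog, fell by 0.19, and the ratio of COX7A1 to COX7A2 went from 15.3% in MRC5_Mo to 29.8% in MRC5_coH196 (geometric means of the FPKM ratios). COX7A2L, a related factor that joins complexes III and IV, rose by 0.29 ± 0.046 (adjusted p = 3.97e-06, edgeR), from 62.4 to 64.9 FPKM to 66.4 to 70.3. COX5B rose by 0.25 and COX6C by 0.18, both small nuclear-encoded subunits, and COX7C by 0.11, which turned negative on library totals and on FPKM. For COX6C the FPKM ranges overlapped, with 134.8, 127.7 and 143.4 in MRC5_Mo and 127.2, 122.1 and 162.4 in MRC5_coH196 (adjusted p = 0.0301, edgeR). COX6B2, a paralog of COX6B1 known from testis, rose by 2.21 ± 0.51, yet this rests on 2 to 7 counts per MRC5_Mo library and 12.95 to 19.83 per MRC5_coH196 library. The largest falls of the complex were those of COX7B (-0.35) and COX8A (-0.34).

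NDUFA4L2 gave the largest change of all members. It was at 0.64, 0.72 and 1.14 FPKM in MRC5_Mo, at 0.96, 1.64 and 1.22 in MRC5_coH69 and at 24.7, 22.3 and 27.2 in MRC5_coH196, and at 0.38, 0.19 and 0.52 in H196_Mo and 0.71, 0.72 and 0.53 in H196_Co. Each MRC5_coH196 library lay above all others by an order of magnitude, whereas MRC5_Mo overlapped both MRC5_coH69 and H196_Co. In counts, 8 to 17 per MRC5_Mo library stood against 287 to 362 per MRC5_coH196 library, a log2 fold change of 4.91 ± 0.17 (SE), or 30.1-fold (adjusted p = 3.14e-18, edgeR). NDUFA4 was at 79.9, 83.0 and 76.3 FPKM in MRC5_Mo, 84.3, 87.7 and 93.4 in MRC5_coH69 and 66.9, 68.1 and 63.7 in MRC5_coH196. Its log2 fold change in MRC5_coH196 was -0.09 ± 0.047 and did not pass (adjusted p = 0.0704, edgeR), it passed as lower without MRC5_Mo replicate 3 (adjusted p = 0.0362), and on library totals it was -0.27. NDUFA4L2 came to 1.01% of the NDUFA4 level in MRC5_Mo, 1.41% in MRC5_coH69 and 37.2% in MRC5_coH196, so NDUFA4 stayed the more abundant form in each group. The log2 ratio was -6.63 ± 0.49 (SD, n = 3) in MRC5_Mo and -1.43 ± 0.19 in MRC5_coH196, a difference of 5.20 ± 0.30 (SE) with groups that did not overlap (two-sided exact permutation p = 0.1). With 3 libraries against 3, 0.1 is the smallest p this test allows. Over 21 such comparisons of paralog ratios, 13 had groups that did not overlap, and the smallest adjusted p was 0.162. These comparisons share libraries and genes, and ratios of other gene pairs were not counted, so the 13 has no background beside it. NDUFA4L2 lies at chr12:57234903-57240762 and NDUFA4 at chr7:10931943-10940256 (GRCh38.p13, minus strand).

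**Figure D3:**
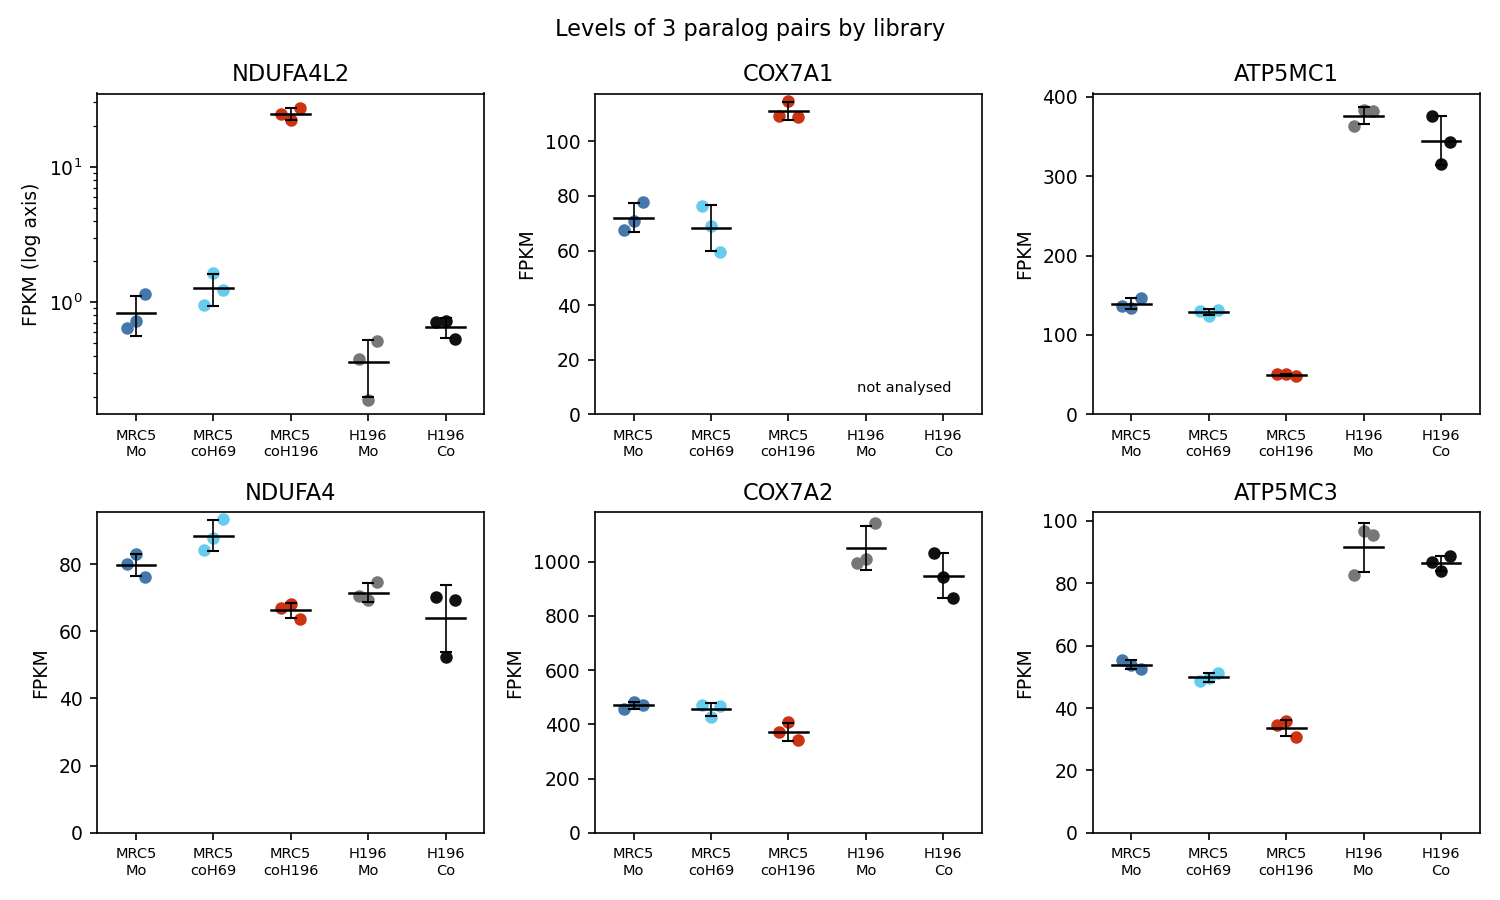
FPKM by library (points, 3 per group) with the group mean and SD for 3 pairs of paralogs; the axis of NDUFA4L2 is logarithmic and the others are linear from 0, and COX7A1 was analysed in MRC5 only. NDUFA4L2 and COX7A1 are highest in MRC5_coH196 among the MRC5 groups and ATP5MC1 is lowest there, at 48.2 to 50.5 FPKM against 134 to 147 in MRC5_Mo.

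In complex V, 14 of 18 tested genes were lower and the other 4 did not pass. ATP5MC1, one of 3 genes that encode the same c subunit of the proton-driven ring with different import sequences, fell most of all members. It was at 137, 134 and 147 FPKM in MRC5_Mo, 130, 124 and 131 in MRC5_coH69, 50.5, 50.4 and 48.2 in MRC5_coH196, 363, 383 and 382 in H196_Mo and 376, 315 and 343 in H196_Co. No MRC5_coH196 library reached the level of any other, and ATP5MC1 had a log2 fold change of -1.33 ± 0.064 (SE, adjusted p = 1.42e-15, edgeR), or 2.52-fold lower. ATP5MC3 fell by 0.51, and ATP5MC2, the most abundant of the 3, had a log2 fold change of -0.02 and did not pass. In the mono-cultured fibroblasts ATP5MC1 was at 258.5% of the ATP5MC3 level, and in MRC5_coH196 at 147.6%, while ATP5MC2 went from 621.8% to 875.9% of it. All 5 genes of the catalytic F1 head were lower. ATP5F1B, the catalytic β subunit, went from 450.2, 467 and 476 FPKM to 299, 303 and 284, a log2 fold change of -0.48, with ATP5F1A at -0.36 and ATP5F1C at -0.34. In the peripheral stalk 2 of 4 genes were lower, ATP5PB (-0.29) and ATP5PF (-0.19), and ATP5MF, a small membrane subunit, fell by 0.63. ATP5IF1, the inhibitor protein of the ATP synthase, had a log2 fold change of -0.08 and did not pass.

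Co-culture with the NE line gave few calls among the same genes. Against MRC5_Mo, 1 member was higher and 2 were lower in MRC5_coH69 out of 81 tested, while 3.78% of all genes were higher and 2.93% lower. Below 0 lay 67 of the 81 log2 fold changes, with a median of -0.06, while 49.9% of all genes lay above 0. In MRC5_coH196 against MRC5_Mo, 66 of 81 lay below 0, with a median of -0.22. The lean was thus as one-sided in MRC5_coH69, and smaller in size. Both comparisons share the 3 MRC5_Mo libraries. NDUFA12, an accessory subunit of complex I, was at 134, 135 and 133 FPKM in MRC5_Mo and 127, 115 and 108 in MRC5_coH69, a log2 fold change of -0.23 ± 0.059 (adjusted p = 0.0174, edgeR). ATP5MC2 fell by 0.16 ± 0.049 (adjusted p = 0.0439, edgeR), and NDUFA4 rose by 0.16 ± 0.046 (adjusted p = 0.0363, edgeR). NDUFA4L2 had a log2 fold change of 0.56 ± 0.32 and did not pass (adjusted p = 0.34, edgeR), and COX7A1 had -0.19 ± 0.13. The calls are marginal, since no member was called higher without any 1 of the MRC5_Mo libraries or without MRC5_coH69 replicate 2 or 3 (edgeR, 1 at an unadjusted p under 0.05 with all libraries). The number lower was 0 without MRC5_Mo replicate 2 or 3 or MRC5_coH69 replicate 3, 1 without MRC5_Mo replicate 1 or MRC5_coH69 replicate 1 or 2, and 4 without MRC5_coH196 replicate 2. DESeq2 also called 1 higher and 2 lower, limma on log2(FPKM + 1) called 0 and 1, and at an unadjusted p under 0.05 edgeR gave 1 higher and 14 lower. Of all 12819 genes tested, 2574 had an unadjusted p under 0.05 in either direction (edgeR), a share near that of the members.

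The direct comparison of the fibroblast co-cultures, MRC5_coH196 against MRC5_coH69, had 45 members lower and 13 higher of 81, against 36.6% and 35.7% of all genes. It shares libraries with both comparisons above, and on library totals 66 members were lower and 6 higher. NDUFA4L2 rose by 4.35 ± 0.16 on the log2 scale (20.4-fold), COX6B2 by 2.65 on few counts and COX7A1 by 0.94. ATP5MC1 fell by 1.19, NDUFS8 by 0.69 and NDUFA6 by 0.59. By complex, 26 of 36 genes of complex I and 11 of 18 of complex V were lower, and 7 of 13 of complex IV were higher (3 on library totals). NDUFA4 was lower by 0.25 ± 0.047 (adjusted p = 3.11e-05, edgeR). COX4I1 was higher by 0.13 ± 0.044 (adjusted p = 0.0122, edgeR), but it turned to -0.03 on library totals and to -0.05 on log2(FPKM + 1), and it did not pass without MRC5_coH196 replicate 1 (0.09, adjusted p = 0.0865). ATP5MC2, COX7C, NDUFB4 and UQCRH were also called higher and changed sign on log2(FPKM + 1). In complex II, SDHA was higher by 0.29 and SDHB lower by 0.29, and in complex III the largest change was that of UQCRQ, a ubiquinone-binding subunit, at -0.35.

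In the tumor line, H196_Co against H196_Mo gave 3 members higher and 1 lower of 80 tested, with 12% of all genes higher and 7.78% lower. The members' median log2 fold change was -0.03. NDUFA3, an accessory subunit of complex I, was at 31.3, 34.6 and 34.2 FPKM in H196_Mo and 37.4, 41.7 and 39.0 in H196_Co, without overlap. Its log2 fold change was 0.32 ± 0.092 (adjusted p = 0.0176, edgeR), and UQCRC1 rose by 0.23 ± 0.075 (adjusted p = 0.0345, edgeR). COX6B2 rose by 1.12 ± 0.33 (adjusted p = 0.0202, edgeR), from 7 to 13.04 counts per library to 15.04 to 29.97. NDUFA5, another accessory subunit, fell by 0.27 ± 0.088 (adjusted p = 0.0361, edgeR), from 37.2, 27.4 and 28.2 FPKM to 25.6, 24.5 and 20.1. COX4I1 had a log2 fold change of 0.03 ± 0.087 and NDUFA4 of -0.08 ± 0.095, and neither passed. SDHA, SDHB, SDHC and SDHD lay between -0.05 and 0.10. NDUFA4L2 held 3 to 6 counts per H196_Mo library and 6 to 10 per H196_Co library, too few to pass the filter in this line, and its log2 ratio to NDUFA4 was -7.74 ± 0.70 (SD, n = 3) and -6.61 ± 0.42, with groups that did not overlap (two-sided exact permutation p = 0.1, the smallest possible). COX7B2, a testis paralog of COX7B, was at 2.02 to 4.45 FPKM in H196_Mo and 2.22 to 3.5 in H196_Co, and COX6A2 and COX8C held at most 2 counts in any library. The counts in this comparison moved with single libraries. The number higher was 7 without H196_Co replicate 2, 1 without H196_Co replicate 1, and 0 without H196_Co replicate 3 or H196_Mo replicate 1. The number lower was 3 without H196_Co replicate 1, 2 without H196_Mo replicate 1, and 0 without H196_Co replicate 3 or H196_Mo replicate 3. With all libraries, edgeR gave 8 higher and 3 lower at an unadjusted p under 0.05, DESeq2 called 2 and 2, and limma on log2(FPKM + 1) called 2 and 6. Of all 12806 genes tested, 4294 had an unadjusted p under 0.05 in either direction (edgeR), a larger share than that of the members. DESeq2 called 1226 of all genes higher and 885 lower, and limma 930 and 1627. On library totals 1 member was higher and 5 were lower, and of all genes 1024 were higher and 2067 lower.

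The responses of the lines to each other were compared by an interaction term over all 15 libraries, as the change in MRC5_coH196 minus the change in H196_Co. Of 80 members tested, 40 were lower and 4 higher in this difference, against 27.1% and 24.1% of the 13585 genes tested, and the members' median was -0.25 against -0.03 for all genes. By complex, 21 of 36 genes of complex I, 11 of 18 of complex V, 3 of 8 of complex III, 4 of 12 of complex IV and SDHB of complex II were lower. ATP5MC1 (-1.32 ± 0.10, SE), NDUFS8 (-0.89 ± 0.12) and NDUFB7 (-0.69 ± 0.11), an accessory subunit, had the largest negative differences. NDUFA4L2 (4.06 ± 0.61), NDUFS4 (0.28 ± 0.10) and COX5B (0.27 ± 0.099) had the largest positive ones that passed, and COX7A2L (0.23 ± 0.071) was the fourth that passed. The value of NDUFA4L2 rests on 3 to 10 counts per H196 library. Adjusted p-values of these 7 genes ran from 3.66e-11 for ATP5MC1 to 0.0256 for COX5B (edgeR). COX4I1 had a difference of 0.03 ± 0.098 and NDUFA4 one of -0.04 ± 0.11, and neither passed. The number higher was 2 without H196_Co replicate 2.

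**Figure D4:**
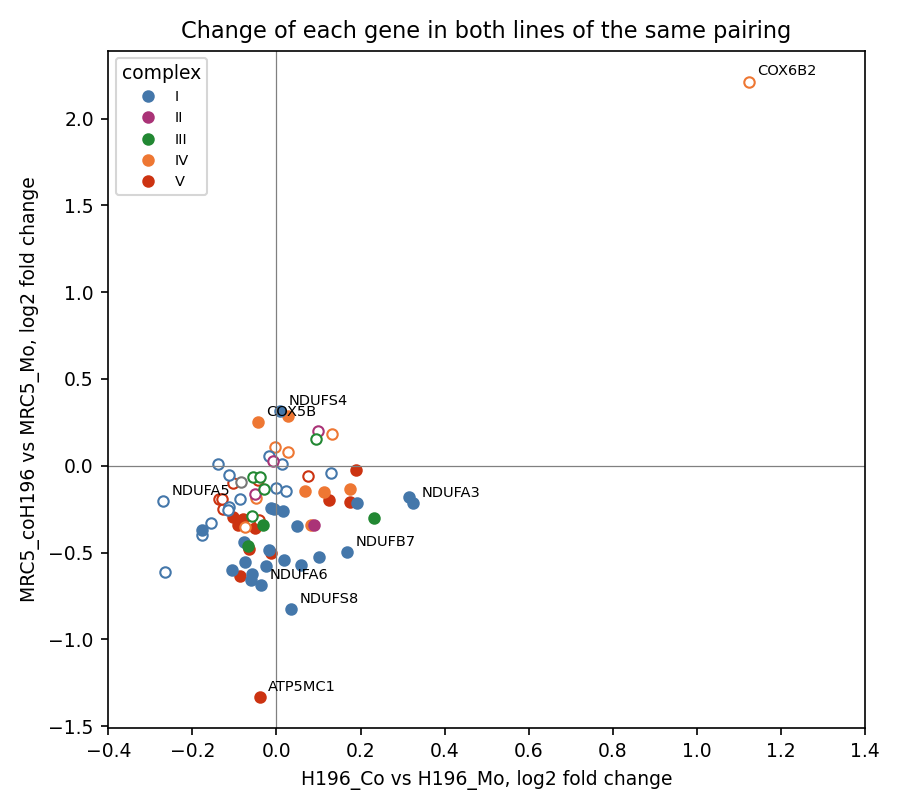
Log2 fold change of each member tested in both lines (edgeR, TMM scale), in H196_Co against H196_Mo on the horizontal axis and in MRC5_coH196 against MRC5_Mo on the vertical axis; points are filled where the difference of the responses passed at an adjusted p under 0.05. Most points lie under the horizontal zero line and close to the vertical one, with ATP5MC1 at -1.33 and -0.04; NDUFA4L2 was not tested in H196 and is not drawn, and COX7C and UQCRH change sign on other scalings.

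Between the mono-cultured lines, 44 of 80 members were higher and 21 lower in H196_Mo than in MRC5_Mo, against 44% and 42.6% of all genes. The share higher is somewhat above that of all genes and the share lower under it. The scaling matters here, since the median over all genes was 0.03 on the TMM scale and 0.45 on library totals, and 9 of the 21 genes called lower changed sign on other scalings. On library totals 66 members were higher and 9 lower, and of all genes 8034 were higher and 4022 lower. The 44 higher kept their sign in the 4 scalings. Library totals and FPKM move all genes up here, with a median of 0.34 on log2(FPKM + 1), so these signs could hardly change. In complex IV 10 of 12 genes were higher, with a median log2 difference of 0.60. COX6C was at 128 to 143 FPKM in MRC5_Mo and 516 to 582 in H196_Mo (a difference of 1.54 ± 0.080 on the log2 scale, adjusted p = 1.28e-16, edgeR), and COX4I1 was higher by 0.81. NDUFB9, an accessory subunit of complex I, was at 172 to 174 FPKM in MRC5_Mo and 643 to 695 in H196_Mo, a difference of 1.497 ± 0.063 (adjusted p = 9.51e-19, edgeR). COX6B2 was higher by 1.26 ± 0.57 on few counts (adjusted p = 0.0396, edgeR). NDUFV3 (-1.10 ± 0.068), a small flavoprotein subunit, and NDUFC2 (-0.85 ± 0.054) had large differences in the other direction, and NDUFA4 was lower by 0.60. NDUFA4L2 had a larger value (-1.63 ± 0.42), which rests on 3 to 6 counts per H196_Mo and 8 to 17 per MRC5_Mo library. It did not pass the filter in the H196 libraries alone. The c subunit gene ATP5MC1 was higher by 1.003 and SDHB by 0.71. Line, patient of origin and growth medium cannot be told apart in this comparison.

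Many of the genes that build and serve these complexes were lower as well in MRC5_coH196 than in MRC5_Mo. Cytochrome c (CYCS) fell from 30.4, 34.3 and 31.4 FPKM to 14.0, 14.6 and 12.9, a log2 fold change of -1.04 ± 0.051 (adjusted p = 2.94e-15, edgeR), and cytochrome c1 (CYC1) and NDUFAB1, the acyl carrier subunit of complex I, fell too. Of 56 assembly factors, 43 were lower and 3 higher, against 37.1% lower and 37.2% higher of all genes, and their median log2 fold change of -0.48 was below that of the subunits. By complex, 15 of 19 factors of complex I, 1 of 4 of complex II, 6 of 6 of complex III, 17 of 23 of complex IV and 4 of 4 of complex V were lower. The largest falls were those of COA7 (-1.31), a factor of complex IV, NDUFAF6 (-1.09), a factor of complex I, BCS1L (-1.08), which inserts the Rieske protein into complex III, TMEM126A (-0.99), FOXRED1 (-0.81) and NDUFAF4 (-0.78) of complex I, and SDHAF2 (-0.93), which attaches flavin to SDHA. FMC1 (-0.90) of complex V and COA4 (-0.80) of complex IV fell by similar amounts, and SDHAF4 (0.79), a factor of complex II, rose. In MRC5_coH69 none of the 56 passed by edgeR, DESeq2 or limma, and edgeR gave 1 higher and 10 lower at an unadjusted p under 0.05. Of all 12819 genes tested there, 2574 had such a p in either direction, a similar share. In H196_Co 1 of the 56 was higher and 3 were lower, smaller shares than the 12% and 7.78% of all genes.

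**Figure D5:**
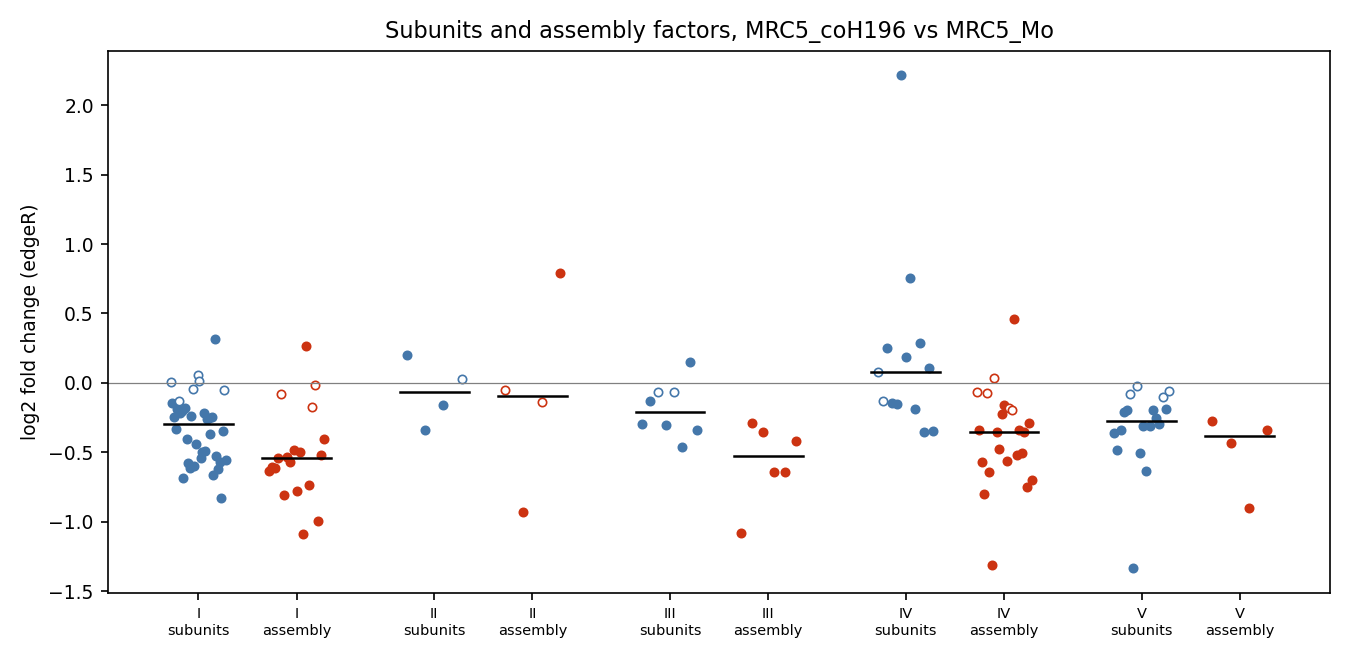
Log2 fold changes (edgeR, TMM scale) in MRC5_coH196 against MRC5_Mo of the tested subunits (blue) and assembly factors (red) of each complex, with 1 point per gene, filled where the adjusted p was under 0.05, and bars at the medians. For complex I the medians are -0.30 for 36 subunits and -0.54 for 19 factors, and for complex IV they are 0.08 for 13 subunits (-0.10 on library totals) and -0.35 for 23 factors; the rises of the subunits COX7C and UQCRH turn to falls on library totals or FPKM.

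Of 11 tested regulators of mitochondrial biogenesis, 5 were lower and 2 higher in MRC5_coH196, and with 37.1% of all genes lower and 37.2% higher this is near the background (8 lower and 2 higher on library totals). TFAM, which packs and transcribes mitochondrial DNA, fell from 14.5, 14.4 and 15.3 FPKM to 6.95, 6.47 and 6.86, and from 439 to 474 counts to 263 to 285. Its log2 fold change was -0.58 ± 0.075 on the TMM scale, -0.76 on library totals and -1.11 on log2(FPKM + 0.1), a gap between counts and FPKM whose cause was not tested. The coactivator PPRC1 fell by 0.59. TFB1M (0.76), an rRNA methyltransferase of mitochondria, and the transcription factor YY1 (0.76) rose. In H196_Co, 2 of the 12 were higher, TFB1M (0.50) and PPRC1 (0.27), and GABPA was lower (-0.25), beside 12% and 7.78% of all genes. Of 9 hypoxia genes with roles in respiration, 5 rose in MRC5_coH196 and 1 fell, against 37.2% and 37.1% of all genes, and on library totals 5 were higher and 4 lower. MXI1, a MYC antagonist, rose from 2.51 to 2.76 FPKM to 24.3 to 27.1 (log2 fold change 3.46 ± 0.072, adjusted p = 8.91e-23, edgeR), and BNIP3 and BNIP3L, receptors that mark mitochondria for removal, rose by 2.70 and 2.25. PDK1, a kinase that keeps pyruvate out of the citric acid cycle, rose by 1.86, and LONP1, a protease known to degrade COX4I1, by 0.59, while HIGD1A, a small factor bound to complex IV, fell by 0.36. The same list had 6 genes higher and 1 lower in H196_Co, where 12% and 7.78% of all genes were, among them BNIP3 (1.43), MXI1 (1.07), PDK1 (0.96), LONP1 (0.62) and BNIP3L (0.48). In MRC5_coH69, BNIP3 rose by 0.25 and BNIP3L by 0.28. The differences of the responses of the lines were 2.36 for MXI1, 1.74 for BNIP3L, 1.24 for BNIP3 and 0.87 for PDK1, all at an adjusted p under 0.05 (edgeR), so these genes rose more in MRC5_coH196 than in H196_Co, and LONP1 was not among those that passed.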

How the data were processed

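RNA sequencing of poly(A) RNA was carried out for 15 libraries of 2 cell lines, 3 in each of 5 groups taken from the sample labels. Per the methods, filtered reads were aligned to GRCh38.p13 with HISAT and to gene sequences with Bowtie2, and the submitters' processing notes list HISAT2 2.1.0, Bowtie2 2.3.4.3 and RSEM 1.3.1, without roles. The deposited expected count values are estimates per gene made by the authors, not normalized and not all whole, and were rounded here to whole numbers. The deposited FPKM values were made by the authors, per length and library size as the unit says, and no further scaling was applied here. Columns with fold changes and p-values of the authors' own comparisons were not used, nor were 30 per-library columns of TPM and normalized counts. Libraries held 16073597 to 19170560 counts, and replicates differed by more than sampling noise.

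Counts were tested with edgeR 4.0.16 (R 4.3.3, quasi-likelihood test, TMM factors, filterByExpr) in 1 model of the 9 MRC5 libraries, 1 of the 6 H196 libraries and 1 of all 15 over genes in both tables, with Benjamini-Hochberg adjustment over all genes and a threshold of 0.05. Standard errors were obtained from each coefficient and its F statistic, as log2 fold change over root F. Log2 ratios of paralogs were taken on FPKM within a library and compared by a two-sided exact permutation test. Tested on simulated counts of MRC5_coH196 against MRC5_Mo (12819 genes), the test recovered 90 of 100 genes changed 1.5-fold and 100 of 100 changed 2-fold, with 11 false calls, and the simulated interaction term (13585 genes) recovered 65 of 100 and 94 of 100, with 12 false calls. Each simulation changed 200 well-counted genes, as many up as down, with the same spread for every gene. In the data 4765 genes were higher and 4757 lower in MRC5_coH196 against MRC5_Mo. The simulation therefore does not measure the error rate or the scaling under so broad a change.

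The members and lists were chosen with earlier results of these data known. Genes were named by rule: paralog pairs, SDH genes, core catalytic subunits, the 3 largest rises and falls of each comparison, the largest change in each complex, and up to 4 genes per direction of other lists above 0.58. Other named genes were chosen after their values were seen. A result that this rule would name is not reported here. Alternatives were DESeq2 1.42.0, its size factors, library totals, limma 3.58.1 on FPKM with a pseudocount of 1 or 0.1 on the log2 scale, changed filters, thresholds and sample sets, a replicate block, and leaving out each library.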

Additional observations from a re-analysis of the deposited data

Results flagged for a closer look

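The change in MRC5_coH196 against MRC5_Mo differed from the change in H196_Co against H196_Mo for 44 of 80 members, by the interaction term of edgeR over all 15 libraries. The difference was negative for 40 members and positive for 4, against 27.1% and 24.1% of the 13585 genes tested. The share of members called in either direction was thus near that of all genes, and the members departed from it by the lean to negative differences. The differences on the log2 scale were -1.32 for ATP5MC1, -0.89 for NDUFS8 and -0.69 for NDUFB7, and on the other side 4.06 for NDUFA4L2, 0.28 for NDUFS4 and 0.27 for COX5B. The value of NDUFA4L2 rests on 3 to 10 counts per H196 library. Line and medium cannot be told apart in these differences.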

How the results depend on the processing

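In MRC5_coH196 against MRC5_Mo, the number of members lower stayed between 48 and 70 under each alternative apart from the fold limit of 0.58, which left 8. The number higher was 5 on library totals, 5 and 6 by limma on log2(FPKM + 1) and log2(FPKM + 0.1), and 3 with the fold limit, and the members' median was -0.39, -0.40 and -0.40 on library totals and the 2 limma scales. Of all 12819 genes, 3467 were higher and 6295 lower on library totals, and 3299 and 6178 by limma on log2(FPKM + 1). With the fold limit 2207 were higher and 1885 lower. In MRC5_coH69 against MRC5_Mo, 0 members were higher on library totals, by both limma fits, with the replicate block, at an adjusted p under 0.01, with the fold limit, and without NDUFA4, NDUFA4L2, COX7A2L and ATP5IF1. The number lower was 5 on library totals, 1 and 1 by limma, 5 with only the groups compared, 0 at 0.01 and 0 with the fold limit, and the median was -0.073 on library totals and -0.038 and -0.039 by limma. Of all 12819 genes, 423 were higher and 504 lower on library totals, and 228 and 176 by limma on log2(FPKM + 1). At 0.01, 254 were higher and 132 lower, and with the fold limit 54 and 17. With only the groups compared, 486 of 12577 genes were lower. In MRC5_coH196 against MRC5_coH69, the number higher was 6 on library totals, 4 and 4 by limma and 3 with the fold limit, 5 were lower with that limit, and the median was -0.35, -0.37 and -0.38 on the 3 scales. Of all 12819 genes in that comparison, 3304 were higher on library totals and 3104 by limma on log2(FPKM + 1). With the fold limit 1943 were higher and 1675 lower. COX4I1 reversed there, to -0.031 on library totals and -0.048 and -0.048 by limma. In H196_Co against H196_Mo, the number higher was 1 on library totals, 5 with no filter, 0 at 0.01 and 1 with the fold limit, and the number lower 5 on library totals, 6 and 6 by limma, 2 by DESeq2, 0 at 0.01 and 0 with the fold limit. Of all 12806 genes there, 1024 were higher and 2067 lower on library totals, and 1627 were lower by limma on log2(FPKM + 1). DESeq2 called 885 lower. At 0.01, 839 were higher and 349 lower, and with the fold limit 417 and 77. With no filter, 1556 of 16067 genes were higher. Between the lines, 9 members were lower on library totals and 8 and 8 by limma. Of all 13585 genes, 4022 were lower on library totals and 3985 by limma on log2(FPKM + 1). In the difference of responses, the number higher was 1 on library totals, 2 and 2 by limma and 2 at 0.01. Of all 13585 genes, 2762 were higher on library totals, 2731 by limma on log2(FPKM + 1) and 2568 at 0.01. The cause of these shifts was not tested beyond the scaling itself.

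Leaving out 1 library at a time gave 50 to 56 lower, 8 to 10 higher and a median of -0.26 to -0.21 in MRC5_coH196 against MRC5_Mo, the -0.26 without MRC5_coH196 replicate 1. It gave 0 to 1 higher and 0 to 4 lower in MRC5_coH69, 0 to 7 higher and 0 to 3 lower in H196_Co, and 2 to 4 higher and 30 to 48 lower in the difference of responses. Where a group was left with 2 libraries, the spread came from all groups. NDUFA4L2 rose by 4.69 to 5.25 on the log2 scale in MRC5_coH196 against MRC5_Mo in these fits. Replicate numbers are shared between groups, but the deviations of same-numbered libraries correlated at -0.15 to 0.08, so they were not taken as pairs. With the replicate block, 64 of the 65 calls in MRC5_coH196 against MRC5_Mo remained, and 0 members were higher in MRC5_coH69. Alternatives for COX4I2 were not run, nor were those for the fold change of NDUFA4L2 in H196, where it did not pass the filter, and the difference of its log2 ratio to NDUFA4 there was 0.74 to 1.41 leaving out 1 library. Few counts limit NDUFA4L2 in H196 and COX6B2 in both lines, and small calls in MRC5_coH69 and H196_Co depend on single libraries.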
